A study of Mus musculus with 6 samples.

Results

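The neurotrophin genes *Bdnf* and *Ntf3* and the receptor genes *Ntrk2*, *Ntrk3*, *Ngfr* and *Sort1* were followed in RNA-seq of E18.5 mouse cortex. They are the rows of the deposited table whose symbol is one of these 6 names, out of 59484 features, of which 23505 carry a symbol. All 6 were found once and all 6 were tested. There were 3 samples of wild-type cortex and 3 with the genotype label Sam68:Slm2 ko (dKO). The latter mice lack the RNA-binding proteins Sam68 and SLM2 (encoded by *Khdrbs1* and *Khdrbs3*). The mice were C57BL/6 and no treatment is given. Double knockouts came from matings of *Sam68* heterozygotes without *Slm2*, a cross that gives no wild-type littermates, and both deletions are constitutive.

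Neurotrophins are secreted growth factors that are made as precursors and cleaved to the mature protein. BDNF binds the receptor tyrosine kinase TrkB (encoded by *Ntrk2*) and NT-3, the product of *Ntf3*, binds TrkC (*Ntrk3*). The p75 receptor (*Ngfr*) binds all neurotrophins, and together with sortilin (*Sort1*) it binds their uncleaved precursors. In the developing cortex these signals are known for the survival, differentiation and dendrite growth of neurons. *Ntrk2* and *Ntrk3* each give full-length receptors with a kinase domain and truncated receptors without one.

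*Bdnf* is transcribed from several start sites, and the table sums them into 1 value. The GENCODE M21 annotation lists 11 *Bdnf* transcripts, and the RefSeq promoter windows used here (build GRCm38.p6) hold 7 *Bdnf* start sites. Of the 6 genes, 4 had such windows, 11 in all. Below are the 250 bases before the first *Bdnf* start and before the *Bdnf* start at position 109692436, which is the 1 window among the 11 that holds the CREB half-site CGTCA, and the 250 bases before the *Ntrk2* start, for the gene with the largest log2 fold change in size. Each is on the plus strand and is written 5′ to 3′, and capitals mark the half-site.
Bdnf, chr2:109674450-109674699: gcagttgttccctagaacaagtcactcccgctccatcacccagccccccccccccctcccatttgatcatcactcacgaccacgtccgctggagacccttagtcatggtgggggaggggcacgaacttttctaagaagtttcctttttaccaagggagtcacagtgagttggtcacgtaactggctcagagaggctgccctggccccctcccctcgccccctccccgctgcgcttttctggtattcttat
Bdnf, chr2:109692186-109692435: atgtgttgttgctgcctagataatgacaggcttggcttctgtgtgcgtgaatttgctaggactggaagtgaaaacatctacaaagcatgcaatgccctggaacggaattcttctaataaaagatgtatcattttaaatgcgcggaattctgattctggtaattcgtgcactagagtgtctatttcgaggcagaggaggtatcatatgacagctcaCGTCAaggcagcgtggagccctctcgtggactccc
Ntrk2, chr13:58806319-58806568: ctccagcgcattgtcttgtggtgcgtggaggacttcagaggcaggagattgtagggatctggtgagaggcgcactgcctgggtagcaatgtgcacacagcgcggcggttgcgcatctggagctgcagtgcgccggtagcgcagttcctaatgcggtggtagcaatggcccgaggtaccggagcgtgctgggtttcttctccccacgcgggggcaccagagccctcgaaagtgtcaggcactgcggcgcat
The half-site (CGTCA, or TGACG on the other strand) begins 35 bases before the start at 109692436. It occurs in 17.8% of the 32851 promoter windows of this length, and the full palindrome TGACGTCA, which contains it, occurs in 1.55% and in none of the 11. The G and C content of the *Bdnf* windows ran from 39.2% to 59.6%, with a median of 52.4% over all windows. Reads of the table cannot be assigned to one or another of these starts.

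The libraries hold between 31837922 and 40896541 reads on the listed features. *Khdrbs1* had between 7974 and 8436 normalized counts in wild-type cortex, against 114 to 197 in the dKO, and *Khdrbs3* had between 12764 and 15215 and between 6350 and 7060. All 7 markers of cortical projection neurons were detected, and their summed level lay between 95206 and 128105 in wild-type cortex, against 107498 to 141345 normalized counts in the dKO. A normalized count is the number of reads of a gene after scaling by the size factor of that library. Genotypes were compared with limma on log2(normalized count + 1) over 18970 features whose mean reached 10, and on this scale the change of low genes is understated. Of these features, 19 were called at an adjusted *P*-value under 0.05, or 0.1% (0.0527% higher and 0.0474% lower in dKO cortex). This count was 202 with DESeq2 (60 higher and 142 lower) and lay between 7, without dKO replicate 3, and 46, without dKO replicate 1, when libraries were dropped one at a time.

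None of the 6 genes was called by limma, and the count was also 0 with edgeR and with DESeq2 on the recovered reads. At an unadjusted *P*-value under 0.05 there was 1 gene with limma, *Ntrk2*, against 11.5% of all features tested (4.92% higher and 6.58% lower in dKO cortex). There were 0 with edgeR and 1 with DESeq2, against 2228 and 2201 of all 18970 features tested. For all 6 genes the wild-type and dKO libraries overlapped, where 16.4% of all features tested did not (7.89% all higher and 8.48% all lower in the dKO). Mean levels were higher in dKO cortex for *Bdnf*, *Ntrk3* and *Sort1* and lower for *Ntf3*, *Ntrk2* and *Ngfr*, with log2 fold changes between -0.31 and 0.28. In bulk cortex, fewer cells of a type and less RNA per cell cannot be told apart. The labels do not say how the 3 samples of a genotype relate, so *P*-values measure the spread between these samples, which may be technical.

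**Figure D1:**
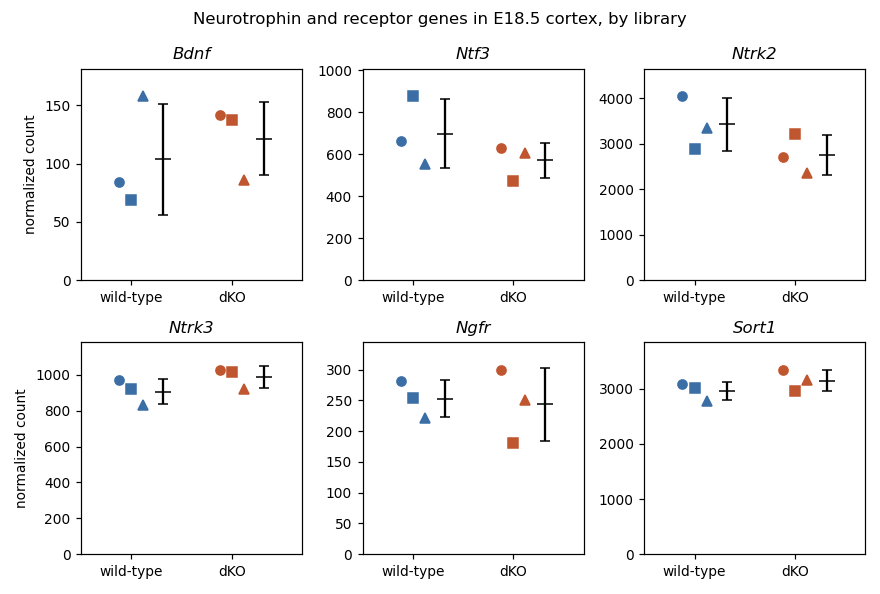
Normalized counts (y axis, starting at 0) of the 6 genes in each library, wild-type in blue and dKO in orange; circles, squares and triangles are replicates 1, 2 and 3, and bars give the mean and SD of the 3 libraries. The genotypes overlap in every panel, and *Bdnf* spans from 68.7 to 158 within the wild-type group.

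*Bdnf*, the ligand of TrkB (GSMG0021533, chromosome 2 from 109674700 to 109727043), had 84.6, 68.7 and 158 normalized counts in the wild-type libraries. It had 142, 137 and 85.8 in the dKO libraries. Wild-type replicate 3 was the highest of the 6 and wild-type replicate 2 the lowest, so that the dKO values lay inside the wild-type range. The means were 104 ± 47.5 and 121 ± 30.9 (SD, n = 3 each), with a log2 fold change of 0.28 (SE = 0.32, limma adjusted *P* = 0.75). The 95% interval of the fold change ran from 0.745 to 1.99, the widest of the 6 genes. *Bdnf* had from 64 to 180 reads per library, which gives a counting error of 9.49% in wild-type cortex, while the SD of the wild-type samples was 45.8% of the mean. When libraries were dropped one at a time, the log2 fold change ran from 0.04 without wild-type replicate 2 to 0.63 without wild-type replicate 3. In the latter fit the limma unadjusted *P* was 0.0492 and the limma adjusted *P* was 0.679.

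*Ntf3*, the gene of the TrkC ligand NT-3 (GSMG0033691, chromosome 6 from 126101413 to 126166744), had 663, 876 and 552 normalized counts in wild-type cortex. In dKO cortex it had 632, 474 and 605. The highest value was wild-type replicate 2 and the lowest dKO replicate 2, and the other 4 libraries lay between 552 and 663. The means were 697 ± 165 and 570 ± 84.6 (SD, n = 3 each), with a log2 fold change of -0.27 (SE = 0.17, limma adjusted *P* = 0.559; exact two-sided permutation *P* = 0.4). Its 95% interval ran from 0.634-fold to 1.08-fold. Without wild-type replicate 2 the log2 fold change was -0.10. Without wild-type replicate 3 it reached -0.43 (limma unadjusted *P* = 0.029, limma adjusted *P* = 0.654). *Ntf3* is known for its level in the hippocampus, and the summed level of 4 hippocampal markers lay between 797 and 1108 normalized counts in wild-type cortex, against 737 to 1084 in the dKO (median log2 fold change -0.19). None of these 4 was at 0 in any library, and their part in the level of *Ntf3* was not tested.

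*Ntrk2*, which encodes the BDNF receptor TrkB (GSMG0009846, chromosome 13 from 58806568 to 59133970), had 4045, 2884 and 3355 normalized counts in wild-type cortex. The dKO libraries had 2698, 3221 and 2350. Of the dKO libraries, 2 lay below all wild-type libraries, and dKO replicate 2 lay between wild-type replicates 2 and 3. The means were 3428 ± 584 and 2756 ± 438 (SD, n = 3 each), with a log2 fold change of -0.31 (SE = 0.14, limma unadjusted *P* = 0.0492, limma adjusted *P* = 0.432). The 95% interval of the fold change ran from 0.649 to 0.999. The exact two-sided permutation test gave *P* = 0.2, where 0.1 is the smallest value that 3 libraries against 3 allow. By its *P*-value *Ntrk2* ranked 2158 among the 18970 features. Its unadjusted *P*-value ran from 0.0119 to 0.313 over the other settings tried, and its adjusted *P*-value was never below 0.223. The log2 fold change was -0.18 without both libraries numbered 1.

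GENCODE M21 lists 7 protein-coding *Ntrk2* transcripts. The longest coding sequences, with 2463 bases, reach to position 59128350, and the 2 with 1428 coding bases end at 58932057. Both kinds are counted in the same feature, so full-length and truncated TrkB were not separated. *Ntrk2* is transcribed in neurons and, largely as the truncated form, in astrocytes, and glial markers were examined beside it. All 5 astrocyte markers and all 5 oligodendrocyte precursor markers had negative log2 fold changes, with medians of -0.67 and -0.67 where all features tested had 0.00. None of these markers was called by limma, and none was at 0 in any library. *Gja1*, which encodes a gap junction protein of astrocytes, had -0.67, and *Olig1*, a transcription factor of the oligodendrocyte lineage, had -0.84 (limma adjusted *P* = 0.345). The summed astrocyte markers were 3675, 2103 and 4503 normalized counts in wild-type cortex, against 2366, 3068 and 2078 in the dKO. The 3 libraries with the highest *Ntrk2* (wild-type replicates 1 and 3 and dKO replicate 2) were also the 3 with the highest sums. This order was not particular to astrocyte markers. The same 3 libraries were the highest for the radial glia markers *Slc1a3* and *Sox9*, but not for *Pax6*, *Hes1*, *Vim* or *Nes*. The summed oligodendrocyte precursor markers lay from 6865 to 11942 in wild-type cortex, against 3804 to 6466 in the dKO, and these sums did not overlap. Of the 5 markers *Olig1*, the most abundant, did not overlap between genotypes, and the other 4 did, where 8.48% of all features tested lay wholly lower in the dKO. The part of these cell types in the level of *Ntrk2* was not tested.

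**Figure D2:**
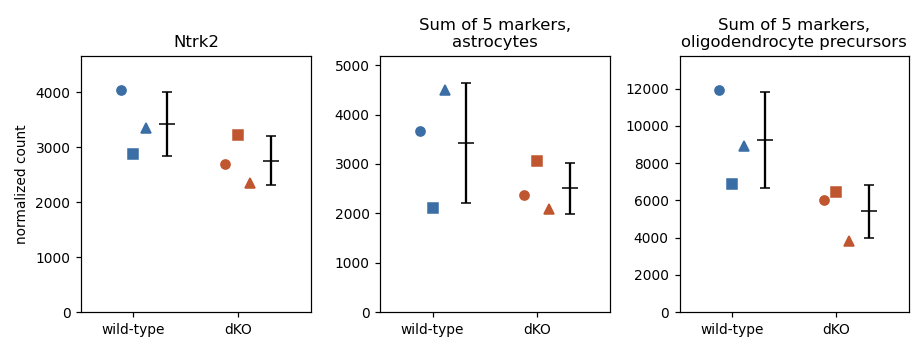
Normalized counts of *Ntrk2* (left) and the summed normalized counts of 5 astrocyte markers (middle) and 5 oligodendrocyte precursor markers (right) by library, with the mean and SD of each genotype; circles, squares and triangles are replicates 1, 2 and 3. Wild-type replicates 1 and 3 and dKO replicate 2 are the highest in the left and middle panels, and the genotypes are separate only in the right panel.

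*Ntrk3*, the gene of the NT-3 receptor TrkC (GSMG0043600, chromosome 7 from 78192114 to 78577980), had 969, 923 and 830 normalized counts in wild-type cortex. It had 1027, 1019 and 920 in dKO cortex. Of the dKO libraries, 2 lay above all wild-type libraries and dKO replicate 3 lay just below wild-type replicate 2. The means were 907 ± 70.7 and 989 ± 59.7 (SD, n = 3 each), with a log2 fold change of 0.12 (SE = 0.10, limma adjusted *P* = 0.645; exact two-sided permutation *P* = 0.3). The 95% interval ran from 0.935-fold to 1.27-fold.

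The named feature does not span all annotated exons of *Ntrk3*. An unnamed feature, GSMG0043599, lies on chromosome 7 from 78180883 to 78192743 and has the same start and end as the GENCODE transcript Ntrk3-208, which is annotated as subject to nonsense-mediated decay. It overlaps the named feature by 630 bases. It falls inside the last exon of Ntrk3-201, the longest transcript with the kinase domain, an exon of 16.8 kb of which 11.9 kb lie in the span of the unnamed feature and 0.631 kb in the named one. Ntrk3-208 itself has 2 exons with 4.39 kb of exon, and which bases of the span were counted is not stated. The truncated coding transcript Ntrk3-202 ends at 78300690, 108 kb before the unnamed feature is reached. Both features thus cover parts of the long last exon of kinase TrkC transcripts, and how reads in their overlap were counted is not stated.

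The unnamed feature had 993, 708 and 529 normalized counts in wild-type cortex, against 868, 751 and 572 in the dKO. In both genotypes the library numbered 1 was the highest and the library numbered 3 the lowest. The means were 743 ± 234 and 730 ± 149 (SD, n = 3 each), and the log2 fold change was 0.00 (SE = 0.23, limma adjusted *P* = 0.999; 95% interval -0.51 to 0.51). Relative to the named *Ntrk3* feature it was at 1.02, 0.767 and 0.637 in wild-type cortex, against 0.845, 0.737 and 0.622 in the dKO. This ratio did not differ beyond the spread between samples (difference of -0.12 on the log2 scale, exact two-sided permutation *P* = 0.6). Taken as a sum, a choice made after seeing the data, both features had 1650 ± 302 normalized counts in wild-type cortex, against 1719 ± 206 in the dKO (SD, n = 3 each; log2 fold change 0.07, SE = 0.14, limma adjusted *P* = 0.868). The libraries numbered 1 also differed from the others over all genes. The Spearman correlation, across 13974 genes of one library, between a gene's deviation from its mean and its exon length was 0.22 in wild-type replicate 1 and 0.31 in dKO replicate 1, and between -0.22 and -0.10 in the other 4 libraries. Genes are not independent replicates, and the part of this trend in the values of the last exon was not tested.

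**Figure D3:**
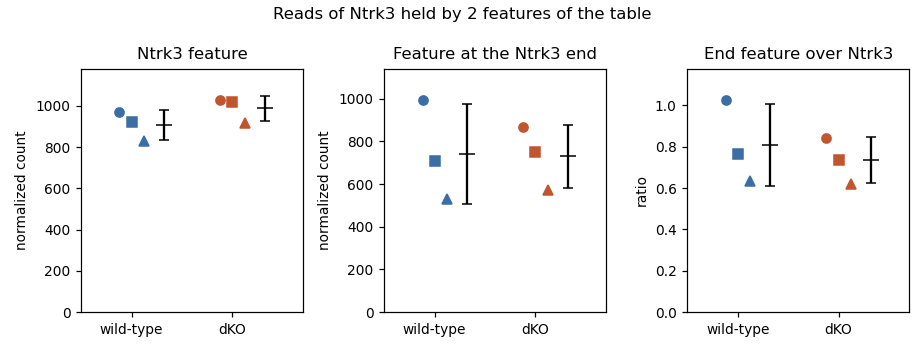
Normalized counts of the named *Ntrk3* feature (left), of the unnamed feature over its last exon (middle) and the ratio of the second to the first (right) by library, all axes starting at 0; circles, squares and triangles are replicates 1, 2 and 3, and bars give the mean and SD. The ratio spans 0.637 to 1.02 among the wild-type and 0.622 to 0.845 among the dKO libraries, and the circles are the highest in both.

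In all, 14 unnamed features overlap the spans of the 6 genes. Of these, 7 were at 0 in all libraries, 6 had a mean above 0 and at most 4.46 normalized counts, and the unnamed feature at the end of *Ntrk3* was the 1 with a mean of at least 10. No such feature overlaps *Bdnf* or *Ngfr*. The deposited values do not state the strand setting of the counting, so reads from antisense transcripts inside these spans cannot be told apart.

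*Ngfr*, which encodes the p75 receptor (GSMG0007269, chromosome 11 from 95568818 to 95587699), had 282, 255 and 222 normalized counts in wild-type cortex. It had 299, 181 and 251 in dKO cortex. The highest and the lowest of the 6 libraries were both dKO. The means were 253 ± 30.4 and 244 ± 59.6 (SD, n = 3 each), with a log2 fold change of -0.08 (SE = 0.20, limma adjusted *P* = 0.9; exact two-sided permutation *P* = 0.8). The 95% interval ran from 0.702-fold to 1.28-fold, and the sign turned, to 0.12 on the log2 scale, without dKO replicate 2. Basal forebrain cholinergic neurons express p75 strongly. Of 6 markers of these neurons, 4 (*Chat*, *Slc18a3*, *Lhx8* and *Gbx1*) had a mean below 10, 3 of the 6 were at 0 in at least 1 library, and the sum ran from 19.3 to 124 normalized counts in wild-type cortex, against 16.3 to 187 in the dKO. The highest sums, in wild-type replicate 3 and dKO replicate 2, held 95.6 and 115 of *Isl1*, while *Chat* had 0 and 6.27. In each genotype *Ngfr* was the lowest in that library. The striatal markers *Drd2* (134 and 162) and *Adora2a* (841 and 840) were also the highest of each genotype there, as were *Penk* and *Tac1*. Of the other striatal markers, *Drd1* and *Ppp1r1b* were the lowest of each genotype there. These libraries thus did not stand out in the cholinergic list alone. The part of cholinergic or striatal cells in the level of *Ngfr* was not tested.

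*Sort1*, the gene of sortilin (GSMG0024816, chromosome 3 from 108284064 to 108361517), had 3089, 3021 and 2777 normalized counts in wild-type cortex. It had 3341, 2956 and 3154 in dKO cortex. Of the dKO libraries, 2 lay above all wild-type libraries and dKO replicate 2 lay inside their range. The means were 2963 ± 164 and 3150 ± 192 (SD, n = 3 each), with a log2 fold change of 0.09 (SE = 0.08, limma adjusted *P* = 0.694; exact two-sided permutation *P* = 0.4). This was the narrowest of the 6 intervals, from 0.936-fold to 1.21-fold.

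**Figure D4:**
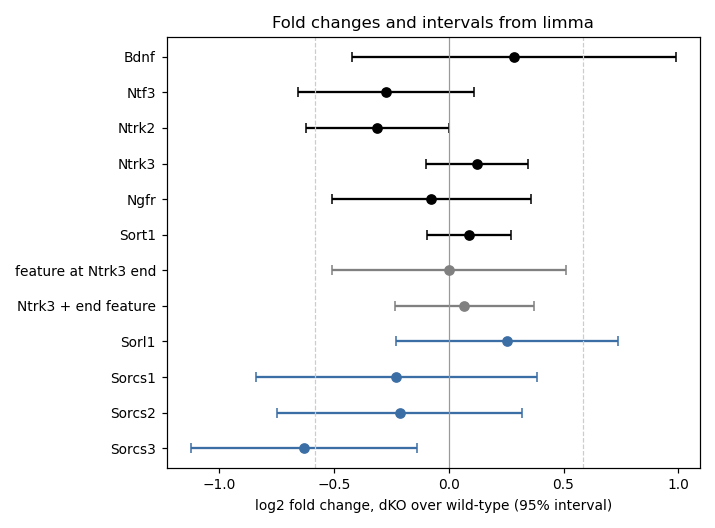
Log2 fold changes of dKO over wild-type cortex (x axis) with 95% intervals from limma, n = 3 libraries per genotype, for the 6 genes (black), the feature at the *Ntrk3* end and its sum with *Ntrk3* (grey) and the sortilin relatives (blue); dashed lines mark a 1.5-fold change. The interval of *Bdnf* reaches to 1.99-fold, that of *Sort1* stays between 0.936-fold and 1.21-fold, and that of *Sorcs3* lies below 0.

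To compare levels between genes, normalized counts were divided by the length of all annotated exons inside each feature. *Ntf3* had 451 ± 107 normalized counts per kb in wild-type cortex and *Sort1* had 391 ± 21.7 (SD, n = 3 each). Their values overlapped, from 306 to 567 and from 367 to 441 over the 6 libraries, so the order of these genes was not resolved. *Ntrk2* with 178 ± 30.3 and *Ntrk3* with 126 ± 9.84 followed and overlapped as well, with 122 to 210 and 116 to 143 over the 6 libraries. *Ngfr* lay below them with 74.2 ± 8.9, and *Bdnf* was the lowest with 16.7 ± 7.64 normalized counts per kb and at most 25.4 in any library. Thus the BDNF receptor gene was well above its ligand gene, while *Ntf3* was above its receptor gene *Ntrk3*. The middle of this order depends on the length used. Divided by the longest coding transcript instead, *Ntrk2* had 392 and *Ntrk3* 46.1 normalized counts per kb, the latter below *Ngfr* with 73.4, since most of the longest *Ntrk3* transcript lies outside the named feature.

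Ratios within a library do not depend on its size factor, and 5 were compared. *Ntf3* over *Ntrk3*, ligand over receptor, was 0.684, 0.95 and 0.665 in wild-type cortex, against 0.615, 0.465 and 0.658 in the dKO. Every dKO ratio lay below every wild-type ratio, but dKO replicate 3 and wild-type replicate 3 were nearly equal. The mean difference was -0.40 on the log2 scale (exact two-sided permutation *P* = 0.1, the smallest value possible; adjusted *P* = 0.4 over the 5 ratios) and lay between -0.50 and -0.24 when libraries were dropped one at a time. The ratios to *Ntrk3* take its named feature alone. Against the sum of the named and unnamed features, wild-type replicate 1 (663 over 1962) lay below dKO replicate 3 (605 over 1492). The separation of the genotypes thus holds only for the named feature. *Ntrk2* over *Ntrk3* was 4.17, 3.13 and 4.04 in wild-type cortex, against 2.63, 3.16 and 2.55 in the dKO, a difference of -0.44 on the log2 scale (exact permutation *P* = 0.2, adjusted *P* = 0.4). These are ratios of normalized counts, not of transcript numbers. *Bdnf* over *Ntf3* and *Bdnf* over *Ntrk2* were higher in dKO cortex by 0.56 and 0.60 on the log2 scale, and *Sort1* over *Ngfr* by 0.17 (exact permutation *P* from 0.3 to 0.4, adjusted *P* = 0.4). Single libraries moved these differences widely, from 0.13 to 1.07 for *Bdnf* over *Ntf3*, from 0.37 to 0.96 for *Bdnf* over *Ntrk2* and from 0.01 to 0.29 for *Sort1* over *Ngfr* when libraries were dropped one at a time, while *Ntrk2* over *Ntrk3* lay between -0.57 and -0.36. None of the 5 passed the threshold, which this design cannot reach for a single ratio.

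Other genes of the neurotrophin and sortilin families were low or did not differ past the threshold. *Ntf5*, neurotrophin-4, had 1.9, 0 and 0 normalized counts in wild-type cortex, against 1.82, 10.5 and 6.96 in the dKO. A value of 0 allows up to 3 reads, or between 2.63 and 3.48 normalized counts by library, for counting error only. *Ntf5* did not reach the mean of 10 needed for a test. Among the sortilin relatives, *Sorcs3* had 231, 172 and 208 normalized counts in wild-type cortex, against 144, 160 and 95.1 in the dKO. Its genotypes did not overlap, as for 8.48% of all features tested in this direction, and its log2 fold change was -0.63 (SE = 0.22, limma adjusted *P* = 0.368). *Sorl1* had 0.26, *Sorcs1* had -0.23 and *Sorcs2* had -0.21 on the log2 scale, all with overlapping genotypes.

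Around the receptors, 7 lists held 158 genes matched to the table and 153 tested. None was called by limma, edgeR or DESeq2. At an unadjusted *P*-value under 0.05 limma gave 13, or 8.5%, against 11.5% of all features tested. With edgeR and DESeq2 there were 13 and 15, against 2228 and 2201 of all 18970 features tested. The genotypes did not overlap in 20 of the 153, or 13.1%, against 16.4% of all features. The median log2 fold change was 0.03 and 9 point estimates lay beyond 1.5-fold.

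Of the genes that cleave, carry or release neurotrophins, 14 of 17 were tested, none was called, and 3 had an unadjusted *P*-value under 0.05, all lower in dKO cortex, where 6.58% of all features tested were. Their median log2 fold change was -0.24, with 12 negative and 2 positive values, where 50.6% of all features tested were positive. *Pcsk1*, a proconvertase of the regulated secretory pathway, had 99.9, 84.9 and 93.8 normalized counts in wild-type cortex, against 50.8, 51.2 and 29 in the dKO. Every dKO library was below every wild-type library, and the log2 fold change was -1.11 (SE = 0.28, limma adjusted *P* = 0.268). *Scg2*, a granin of dense-core vesicles, had -0.74 and *Serpine2*, an extracellular protease inhibitor, had -0.80, both with overlapping genotypes. *Furin*, the proconvertase of the trans-Golgi network, had -0.01, and *Pcsk7* had the highest value, 0.09. The proteases *Plg*, *Mmp3* and *Mmp7* were too low to test.

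The adaptors and regulators next to the Trk receptors showed small differences. All 37 were tested and all 37 point estimates lay within 1.5-fold, with a median of 0.04. At an unadjusted *P*-value under 0.05, 2 were higher and 1 was lower in dKO cortex, where 4.92% and 6.58% of all features tested were. The main docking proteins *Shc1* and *Frs2* had 0.08 and 0.05 on the log2 scale and *Plcg1*, the phospholipase recruited by Trk receptors, had 0.19. *Crkl*, an adaptor of the Rap1 branch, had 0.24 (SE = 0.08, limma adjusted *P* = 0.345). *Traf6*, a ubiquitin ligase that also binds p75, had the largest value with 0.36 (limma adjusted *P* = 0.422). The lowest was *Slitrk3*, a synaptic membrane protein, with -0.34 (SE = 0.09, limma adjusted *P* = 0.291).

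Downstream of the receptors, all 33 tested genes of the Ras, MAPK, PI3K and CREB arm lay within 1.5-fold in the point estimate, with a median of 0.03. *Braf*, a kinase of the MAPK cascade, had the highest value with 0.22, and *Camk2a*, a calcium-dependent kinase of maturing neurons, the lowest with -0.40 (limma adjusted *P* = 0.504 and 0.626). The 25 tested partners and effectors of p75 had a median of 0.06 and also lay within 1.5-fold. Among them *Ngfrap1*, which encodes a p75-associated death domain executor, had 0.14, *Bad*, a proapoptotic gene, had 0.18 and *Tnfrsf19*, a receptor related to p75, had -0.22 (limma adjusted *P* = 0.419).

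The list chosen as genes induced by Trk signalling gave the widest range, from -1.81 to 0.65, with a median of -0.12 over 21 tested genes. Whether each of them answers to Trk signals was not tested. *Nptx2*, a secreted synaptic pentraxin, had 182, 163 and 183 normalized counts in wild-type cortex, against 131, 92 and 88.1 in the dKO without overlap, a log2 fold change of -0.78 (SE = 0.20, limma adjusted *P* = 0.268). *Fos* had 0.65 (limma adjusted *P* = 0.575), *Egr1* had -0.65 and *Arc* had 0.24, all immediate early genes and all with overlapping genotypes. *Npas4*, a low gene with 1.82 to 32.4 normalized counts, gave the value of -1.81. Without it the lowest of this list was *Nptx2*. *Vgf*, a neuropeptide precursor gene, had -0.40. The 18 regulators of *Bdnf* transcription had a median of 0.08 and no value beyond 1.5-fold. Among these *Nfatc4*, a calcium-regulated transcription factor, was the highest with 0.46 and *Mef2c* the lowest with -0.09 (limma adjusted *P* = 0.479 and 0.808). The CREB coactivator gene *Crtc1* had 0.06 and the repressor gene *Rest* had 0.03.

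**Figure D5:**
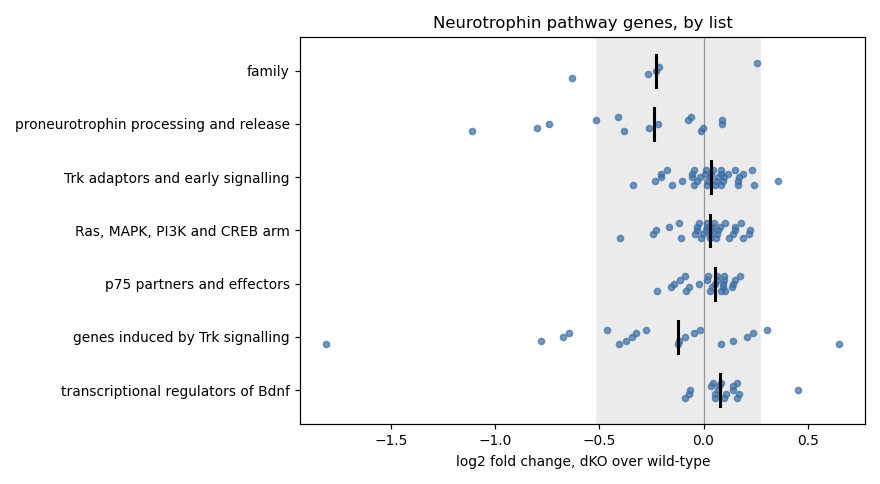
Log2 fold changes of dKO over wild-type cortex (x axis) of each tested gene in the 7 lists (points), with the median of each list (black bar); the grey band holds the middle 80% of all 18970 features, from -0.51 to 0.27. The points of the adaptor, kinase and p75 lists crowd around 0. Those of processing genes reach to -1.11, and those of the list of induced genes to -1.81, the value of the low gene *Npas4*.

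Over the 6 libraries, the genes with a symbol and a mean of at least 100 whose log2 levels followed each member most closely were *Glmp* for *Bdnf* (Pearson r = 0.986), *Arfgap1* for *Ntf3* (0.988), *Ccdc85a* for *Ntrk2* (0.993), *Garem* for *Ntrk3* (0.999), *Sh3bp5* for *Ngfr* (0.992) and *Celf2* for *Sort1* (0.997). The next in order were *D630003M21Rik*, *Scube3*, *Arntl*, *Wasl*, *U2surp* and *Ankfy1*. They are the highest of 11635 correlations over 6 points that share size factors, and are given as a description.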

How the data were processed

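The authors sequenced polyA+ RNA of E18.5 cortex (3 wild-type and 3 dKO samples) as 150 bp paired-end reads, which were analysed on the FAST database. Groups follow the sample titles. The deposited signal is a read count scaled by a DESeq2 size factor for each library. The submitters' processing notes name STAR 2.7.5a and mm10. The counting program and strand setting are not given in the sources used here. Within each library 100.0% of positive values were whole multiples of the value of 1 read (tolerance 0.01), and reads were recovered from them. edgeR 4.0.16 (quasi-likelihood) on these reads called 19 features and DESeq2 1.42.0 called 202.

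Genotypes were compared with limma 3.58.1 in R 4.3.3, with trend and robust options. The scale was log2(normalized count + 1), the 18970 features had means of 10 or more, and Benjamini-Hochberg adjustment ran over all of them. The fit was also run on simulated counts, with the same spread set for every gene and no trend with exon length. That run does not bear on the spread between these libraries. Exact two-sided permutation tests served for single values. Named from each list were the genes with the largest rise and fall at means of 50 or more, and further genes were chosen after their values were seen. Gene lists and members were chosen with earlier results of these data known. *Jun* and *Junb* of the lists are not analysed here, and some other list genes are not reported here by name. Exon lengths came from GENCODE M21 (GRCm38) and promoter sequences from RefSeq. Alternatives covered pseudocounts, filters, quantile and TMM scaling, limma without its options, edgeR, DESeq2, a replicate block and libraries left out. Intervals of counts cover counting error only.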

Additional observations from a re-analysis of the deposited data

How the results depend on the processing

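None of the 6 genes and none of the 153 pathway genes was called in any setting tried. *Bdnf*, *Ntf3*, *Ntrk2*, *Ntrk3* and *Sort1* and the 5 ratios kept their direction in all of theirs. *Ngfr* lay between -0.24 and 0.12 on the log2 scale when libraries were dropped one at a time, positive without wild-type replicate 1 and without dKO replicate 2, and stayed negative in its other settings. The number of features called, 19, became 202 with DESeq2, 7 without the trend and robust options, 9 with the replicate block and 5 with both libraries numbered 1 left out, and lay between 7 (dKO replicate 3 dropped) and 46 (dKO replicate 1 dropped) when single libraries were dropped. It was 8 without wild-type replicate 1, 32 without wild-type replicate 2 and 10 without wild-type replicate 3. The cause was not tested. Deviations of libraries with the same number correlated at 0.098, -0.228 and -0.079, so the numbers were not taken to pair the samples. The replicate block changed no call among the 6 genes or the lists. With 3 samples per genotype and from 64 to 180 reads of *Bdnf*, the 95% interval of its fold change reached 1.99.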

Other observations

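The SLITRK genes, whose products are synaptic adhesion proteins with an ectodomain rich in leucine repeats and include a TrkB partner, were looked at as a group after their values were seen. The list held only *Slitrk1* to *Slitrk5*. All 5 had lower means in dKO cortex, with log2 fold changes from -0.34 to -0.15, where 50.6% of all features tested were positive. *Slitrk3* (1927, 1879 and 2059 normalized counts in wild-type cortex, against 1647, 1603 and 1392 in the dKO), *Slitrk4* and *Slitrk5* did not overlap between the genotypes, as for 8.48% of all features tested in this direction. None was called by limma (adjusted *P* from 0.291 to 0.567). An unadjusted *P*-value under 0.05 was reached by 1 of the 5, and by 6.58% of all features tested in this direction. *Slitrk1* had -0.15 and *Slitrk2* had -0.21.

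Markers of cortical projection neurons had positive log2 fold changes in all 7 cases, with a median of 0.31, and none was called by limma. Of all features tested, 50.6% were positive. *Emx1*, a transcription factor of the dorsal telencephalon, was the highest with 0.54 (limma adjusted *P* = 0.09). The 6 mural and meningeal markers were all negative, with a median of -0.63, and the 5 endothelial markers were also all negative, with a median of -0.23. None of them was called by limma. The genotypes did not overlap in 2 of the 6 and in 1 of the 5, where 8.48% of all features tested lay wholly lower in the dKO. The radial glia list had a median of 0.11, with 4 positive and 2 negative values.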
